A study of Mus musculus with 4 samples.

Results

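The genes on both sides of the mouse Noto locus on chromosome 6 were described in embryos with 1 or with 2 copies of a targeted Noto allele. The members are the gene probes of a microarray that lie within 5 Mb of the point midway between the probes of Smyd5 and Cct7, at position 85422459 of mouse build mm8. Kept were the probes whose signal the scanner software marked as well above background, on both arrays, in 1 genotype or both. These rules gave 123 measured genes out of 174 with a probe in the interval, and out of 18579 measured genes in the whole data set. No expression value other than detection was used to choose them. Noto itself was not analysed here.

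Noto encodes a homeobox transcription factor of the node and notochord, the midline structures that pattern the early mouse embryo and that carry the motile cilia of left-right determination. A targeted allele is made in embryonic stem cells, and chromosomal DNA beside the inserted sequence is inherited together with it. Genes in that flanking DNA are called passenger genes, since animals selected for the allele also carry the flanking variants of the stem cell strain. Their levels are commonly looked at in expression studies of targeted alleles.

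The heterozygous group was Noto GFP/+ and the homozygous group Noto GFP/GFP, both of the NotoGFP stock on a Sv129/CD-1 hybrid background, at the early headfold stage (about E7.75), and both therefore carried a GFP allele of Noto. Per the labels, distal parts with the ventral node were cut off and pooled, 120 to 150 to a pool, and the label fields differ on how much of the embryo the distal part made up. The RNA of 1 pool of each genotype was labelled with 2 dyes and hybridised together on an Agilent array, and a second array was a technical repeat with the dyes exchanged. That each genotype had 1 RNA pool was inferred from the words technical replicate in the labels, and no field states it outright. The labels do not state how the GFP allele was built, how many generations of crossing followed, or which strain's DNA flanked each copy. A strain origin of the flanking DNA was not examined.

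Values are log2 ratios of the homozygote over the heterozygote, so a value below 0 is a lower signal in homozygotes. Each is given for array 1 (homozygote in Cy5) and array 2 (homozygote in Cy3), or as the mean ± SD over the 2 arrays. Levels are log2 intensities after normalization and are compared within a gene only. A gene was called lower or higher where each array gave a difference of 1.5-fold or more (a log2 ratio of 0.58) with the same sign. With 1 RNA pool per genotype the SD covers labelling and hybridisation alone, so no significance test was made. In pooled tissue, fewer cells of a type and less RNA per cell cannot be told apart.

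Across the array, 43379 gene spots gave median foreground intensities of 305 (Cy3) and 438 (Cy5) on array 1, and of 399.6 and 722 on array 2, and the number of arrays limits the precision. Between 63.9% and 81.5% of gene spots were well above background in a genotype, the lower shares on array 2. All 6 node and notochord markers examined (T, Foxa2, Shh, Chrd, Nog and Foxj1) were well above background in both genotypes on both arrays, with mean ratios from -0.52 to 0.33 and none called. Foxj1 (-0.59 and -0.46), Shh (-0.40 and -0.49) and Nog (-0.35 and -0.46) lay below 0 on both arrays. T (0.32 and 0.34) and Chrd (0.10 and 0.06) lay above 0 on both, and Foxa2 changed sign. Foxj1 met the 1.5-fold rule on array 1 alone. Among markers of other cell types, 5 of 5 visceral endoderm, 2 of 4 trophoblast and 3 of 4 blood genes were measured, with mean ratios from -0.44 to 0.36. Only 1 of the 3 blood genes was well above background in both genotypes on both arrays. The lowest value, -0.44 for Hbb-y, is from a gene that was not. The part of these cell types in the results was not tested.

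The neighbourhood of Noto showed hardly any difference between homozygotes and heterozygotes. Of the 123 genes, 3 were called lower in homozygotes and 0 higher. The 3 lower genes were Gkn3, Vmn1r46 and NAP043130-1, at 1.93, 4.52 and -2.32 Mb from the centre. Over all measured genes, 436 of 18579 were called lower, a share of 2.35%, and 11 higher, a share of 0.0592%. The share of lower genes in the interval, 2.44%, was thus close to the background. The mean ratios ran from -1.01 to 0.36 around a median of -0.05, against -0.02 for all measured genes. For 91 genes (74.0%) the mean ratio lay within 0.2 of 0, against 71.9% of all measured genes. On array 1 alone 4 members were at least 1.5-fold lower (3.46% of all genes) and on array 2 alone 7 (5.08% of all genes), and 0 were higher on either.

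**Figure D1:**
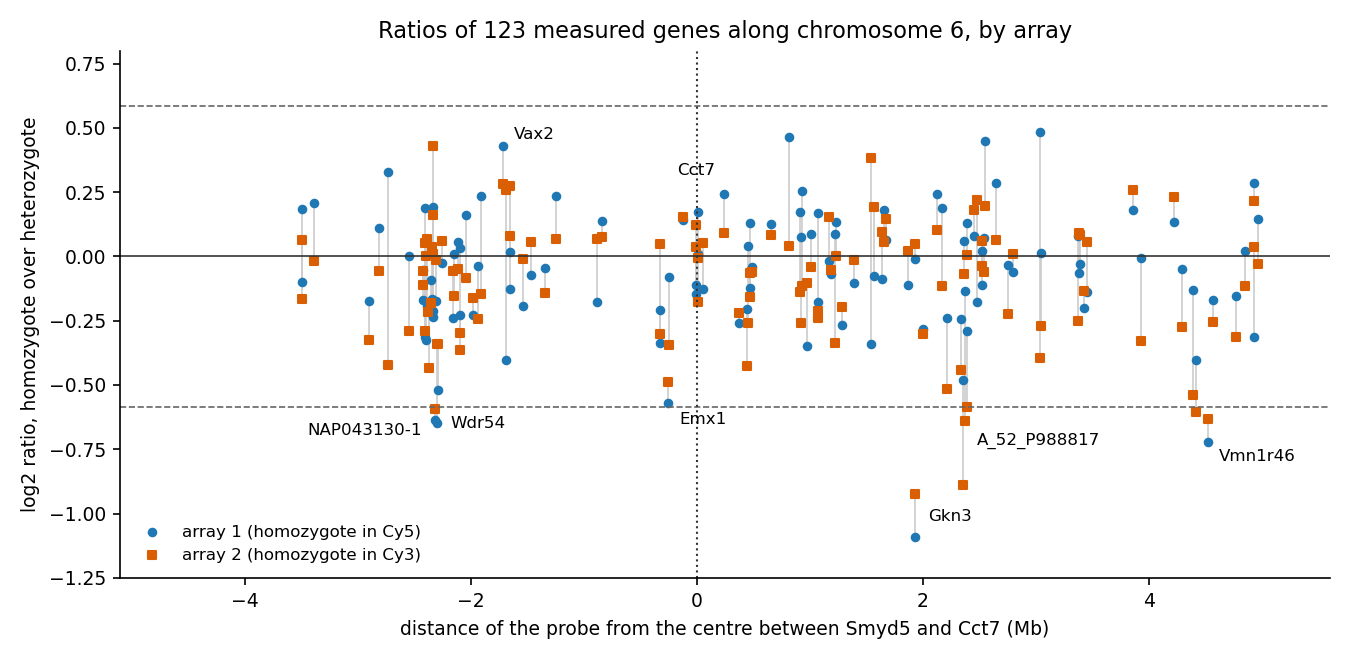
Each of the 123 measured genes is plotted at the distance of its probe from the centre (x axis, Mb), with its log2 ratio of homozygote over heterozygote on array 1 (circles) and array 2 (squares) joined by a line (y axis). Dashed lines mark 1.5-fold, the dotted line marks the centre. Most genes scatter around 0 at every distance, and only Gkn3, Vmn1r46 and NAP043130-1 have both points beyond the lower dashed line.

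On both arrays 44 members (35.8%) lay below 0 and 20 (16.3%) above 0, while the other 59 changed sign between the arrays. Among all measured genes 34.0% lay below and 25.7% above 0 on both arrays. The filter bears on these counts: 8 of the 44 passed it on array 2 through the heterozygote alone, which favours values below 0. Of the 111 members well above background in both genotypes on both arrays, 36 (32.4%) lay below and 19 (17.1%) above 0, against 31.4% and 26.9% of 17204 such genes in all. The median of the interval was -0.06 on array 1 and -0.06 on array 2. It did not keep its sign when the arrays were only centred on their median: the interval then had a median of 0.10 and all measured genes one of 0.12, so under both scalings the members lay slightly below the median of all genes. With median centring 24.4% of the members lay below and 13.8% above 0 on both arrays, against 19.8% and 18.3% of all measured genes. The lower calls then came down to 1, Gkn3, against 1.98% of all genes.

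Within 1 Mb of the centre 26 genes had a median of -0.04, a range of -0.53 to 0.25, and 0 calls, each gene by its brightest probe. Among the 43 single probes in that range 2 were lower by the rule, a dimmer probe each of Rab11fip5 and Tia1. Between 1 and 5 Mb 3 of 135 probes were lower, and among all measured probes 2.02%. The larger share within 1 Mb rests on these 2 probes. That of Tia1 passed the filter on array 2 through the heterozygote alone, which favours values below 0. No ranking of the ranges is therefore drawn from it. Between 1 and 2.5 Mb 64 genes had a median of -0.06 with 2 lower calls, and between 2.5 and 5 Mb 34 genes had a median of -0.03 with 1. A gene with probes in neighbouring ranges was counted in each. The side with lower coordinates held 51 genes (median -0.07, 1 lower) and the other side 72 (median -0.02, 2 lower). Farther out on chromosome 6, the 36 genes between 5 and 10 Mb had a median of 0.02 and 0 calls, and the 121 genes between 10 and 20 Mb a median of -0.10 and 9 lower calls (7.44%). The range with the highest share of lower genes was thus outside the interval, and 60.3% of its genes were dimmer than the median gene. Of its genes 27 were not well above background in both genotypes on both arrays, against 1375 of all 18579 measured genes. The filter bears on such genes, and its part in this share was not tested. The remaining 697 genes of the chromosome had 16 lower calls (2.30%), the same share as the 17488 genes on other chromosomes.

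**Figure D2:**
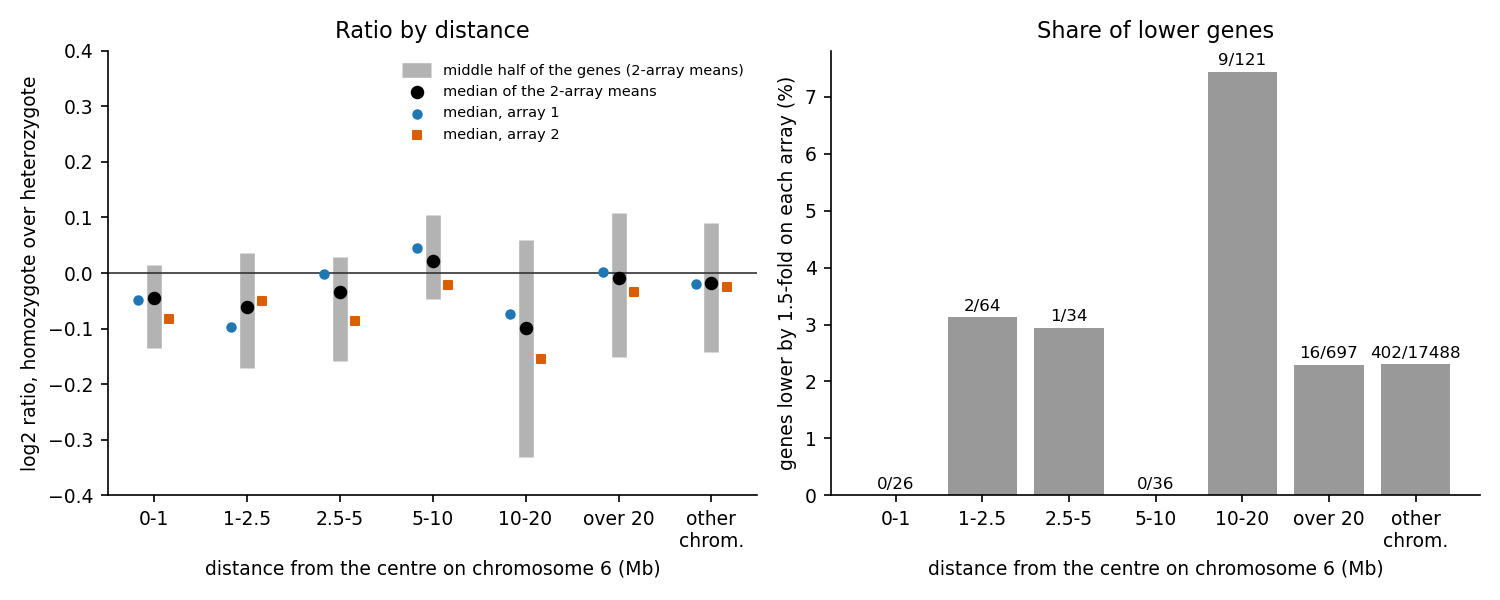
Left, the median log2 ratio (y axis) of measured genes by distance from the centre (x axis, Mb), with the median on each array and a bar for the middle 50% of genes; right, the share of genes called lower (y axis, %), with the count called over the count measured. The 0 to 1 Mb range next to the targeted locus holds 0 of 26 called genes by brightest probe, and the 10 to 20 Mb range holds 9 of 121. Of these 121 genes, 27 were not well above background in both genotypes on both arrays.

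The genes next to the targeted locus had similar levels in both genotypes. Smyd5, a SET and MYND domain methyltransferase, had heterozygote levels of 12.47 and 12.49 on arrays 1 and 2 and homozygote levels of 12.33 and 12.61. The levels overlapped, and its ratio was -0.01 ± 0.19. Its probe lies at chr6:85411289-85411348 of mm8. Cct7, a subunit of the cytosolic chaperonin that folds actin and tubulin, had heterozygote levels of 17.23 and 17.59 and homozygote levels of 17.40 and 17.41. Both homozygote values fell between the heterozygote values, and the ratio was -0.00 ± 0.25. Pradc1, which encodes a protein with a protease-associated domain and lies between them, had a ratio of -0.04 ± 0.10. Fbxo41, an F-box protein gene, had levels of 8.81 and 9.06 in heterozygotes and 8.82 and 9.06 in homozygotes. This was the closest match of the genes around the centre, with a ratio of 0.00 ± 0.01. Egr4, a zinc finger transcription factor of the early growth response family, was at -0.04 ± 0.13.

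Slightly farther from the centre the ratios were of both signs, and Emx1, described later, was the lowest of these near genes at -0.53. Alms1, a protein of the centrosome and ciliary basal body, was at 0.17 ± 0.11, and Rab11fip5, a Rab11 effector in endosome recycling, at 0.15 ± 0.01 by its brightest probe. A dimmer Rab11fip5 probe read -0.95, and the mean of its probes was -0.40. Sfxn5, a mitochondrial sideroflexin, was at -0.21 ± 0.19 and Nat8, an N-acetyltransferase gene, at -0.24 ± 0.03. The levels of Nat8 were 9.10 and 8.83 in heterozygotes and 8.84 and 8.61 in homozygotes, so the genotypes overlapped across arrays although each array gave a lower homozygote signal. None of these gene values passed the 1.5-fold rule.

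The upstream sequence of Smyd5 is shown as that of a gene with similar levels, as a reference for the promoters of the lower genes. It covers the 250 bases before the annotated start in RefSeq, build GRCm38.p6, chr6:85431726-85431975 on the + strand, and is 60.4% G and C. Positions on this build are not comparable with the mm8 positions of the probes.
Smyd5: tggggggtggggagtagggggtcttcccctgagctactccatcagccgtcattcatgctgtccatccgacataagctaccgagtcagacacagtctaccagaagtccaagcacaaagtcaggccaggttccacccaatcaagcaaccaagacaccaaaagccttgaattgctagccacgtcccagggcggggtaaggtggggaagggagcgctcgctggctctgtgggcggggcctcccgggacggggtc
In it, and in those that follow, 3 short motifs were searched on both strands: TAAACA (a forkhead core), TAATTA (a homeodomain core, the kind of site that homeobox factors bind) and GGNAAC (a loose form of the half-site of RFX factors, which regulate ciliary genes). The 3 motifs do not contain one another. None of them was in these 250 bases of Smyd5.

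Gkn3 had the largest difference in the interval when each gene was read by its brightest probe. It encodes a gastrokine, a secreted protein of the stomach lining, and its probe lies at chr6:87349015-87349074 of mm8. Its heterozygote levels were 10.26 and 9.81 and its homozygote levels 9.17 and 8.89. Both homozygote values lay below both heterozygote values, and the signal was 2.01-fold lower in homozygotes. The ratio was -1.09 on array 1 and -0.92 on array 2 (-1.01 ± 0.12). It was the only member called under each of 5 other ways of normalizing or summarising (values from -1.10 to -0.92). The neighbouring gastrokine genes Gkn1 and Gkn2 also have probes in the interval, which were not well above background in either genotype on both arrays. The 250 bases before the annotated Gkn3 start are chr6:87388936-87389185 on the - strand of GRCm38.p6 and are 40.8% G and C. They hold 1 homeodomain core, in capitals, whose first base is 46 bases before the start.
Gkn3: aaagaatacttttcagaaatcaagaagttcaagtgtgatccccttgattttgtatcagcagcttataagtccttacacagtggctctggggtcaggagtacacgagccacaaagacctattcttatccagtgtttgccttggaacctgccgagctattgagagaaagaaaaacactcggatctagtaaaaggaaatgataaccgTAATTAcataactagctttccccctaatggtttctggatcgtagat

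Vmn1r46 was the lower gene farthest from the centre. It belongs to the vomeronasal type 1 receptors, pheromone receptors of sensory neurons in the nose, and its probe lies at chr6:89941983-89942042 of mm8. Heterozygote levels were 10.95 and 10.61 and homozygote levels 10.23 and 9.98. The genotypes did not overlap, and the signal was 1.60-fold lower in homozygotes, with a ratio of -0.68 ± 0.06. With median centring the ratio was -0.53 and was no longer called.

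The interval holds probes for 14 genes of this family, of which 6 were measured, consecutive among the measured genes between 4.29 and 4.77 Mb. Genes of the family that were not measured lie among them. All 6 measured genes lay below 0 on both arrays, also with median centring, with the scanner software's log ratios and with the deposited value table. Their mean ratios ran from -0.68 to -0.16 with a median of -0.28, and 1 of 6 was called. Only Vmn1r46 and Vmn1r47 were well above background in both genotypes on both arrays. The other 4 passed the detection filter on array 2 through the heterozygote alone, which favours values below 0, so the shared sign is no support for a difference. Among these 4 is Vmn1r43, with -0.40 on array 1 and, against a homozygote signal not well above background, -0.60 on array 2. It was called lower with the scanner software's log ratios and with the value table, where the family had 2 calls each and medians of -0.56 and -0.35. Elsewhere in the genome 27 measured genes of the family had a median of -0.50, and 24 lay below 0 on both arrays with 4 called lower. Of these 27, 18 were not well above background in both genotypes on both arrays, so these counts too are partly set by the filter. Its members are similar in sequence, and whether a probe also binds RNA of relatives was not tested.

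NAP043130-1 is a probe name without a gene symbol, at chr6:83106082-83106136 of mm8, and its gene is not named in the sources used here. Its levels were 11.48 and 11.05 in heterozygotes and 10.85 and 10.45 in homozygotes. The genotypes did not overlap, and the signal was 1.53-fold lower in homozygotes (-0.62 ± 0.03). On array 2 the ratio was -0.59, just beyond the rule, and with median centring the mean was -0.44 and the gene was not called.

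Other low members met the rule on 1 array or neither. The unnamed probe A_52_P988817, at 2.36 Mb, had levels of 10.74 and 10.52 in heterozygotes and 10.26 and 9.63 in homozygotes. The genotypes did not overlap, but the ratio was -0.48 on array 1 and -0.89 on array 2 (-0.68 ± 0.29).

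By brightest probe, Emx1 was the lowest named gene close to the centre, at -0.26 Mb. It encodes a homeobox factor best known from the developing forebrain. Its heterozygote levels were 9.31 and 9.28 and its homozygote levels 8.74 and 8.79. The genotypes were clearly separated on both arrays, although the signal was near the low end of the scale. The ratio was -0.57 and -0.49 (-0.53 ± 0.06), which misses the 1.5-fold rule. With the deposited value table the mean ratio was -0.62 and Emx1 was called. Emx1 was also the lowest member within 1 Mb of the centre by brightest probe, while a dimmer probe of Rab11fip5, nearer to the centre, read -0.95. The sequence before the annotated start of Emx1, chr6:85187681-85187930 on the + strand of GRCm38.p6, is therefore shown. It is 75.6% G and C and holds 1 match to GGNAAC, on the other strand, in capitals, with its first base 34 bases before the start.
Emx1: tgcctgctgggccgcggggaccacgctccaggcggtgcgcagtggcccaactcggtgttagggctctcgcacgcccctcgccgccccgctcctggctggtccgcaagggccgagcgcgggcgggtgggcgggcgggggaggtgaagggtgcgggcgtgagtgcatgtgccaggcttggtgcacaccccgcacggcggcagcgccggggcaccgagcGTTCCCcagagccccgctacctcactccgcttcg

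Wdr54 and 1700003E16Rik were neighbours that were both low, and 1700003E16Rik was singled out after its values were seen. Wdr54 encodes a protein with WD repeats. Its levels were 9.69 and 9.04 in heterozygotes and 9.05 and 8.70 in homozygotes, so the genotypes overlapped across arrays. The ratio of Wdr54 was -0.65 and -0.34 (-0.49 ± 0.22) and that of 1700003E16Rik -0.52 and -0.34 (-0.43 ± 0.13). Wdr54 missed the rule on array 2, and 1700003E16Rik missed it on both arrays. RefSeq places their starts on opposite strands with 24 bases between them. The members matched to RefSeq promoters held 5 such pairs with starts within 1000 bases. Wdr54 and 1700003E16Rik were the 1 pair with both genes below 0 on both arrays, and 0 pairs lay above 0. Cct7 and Pradc1, beside the targeted locus, were another of these pairs. The stretches around the shared start region that match GGNAAC are shown, as the sequence that both genes share, on the - strand of GRCm38.p6 with the match in capitals. The upper one is chr6:83156464-83156493 and the lower one chr6:83156417-83156446.
Wdr54 distal stretch: aacggtctcctcGGCAACcaggccccgctg
Wdr54 proximal stretch: ccacggttgcttGGTAACcgcgtagctgcg
The first base of the match lies 102 and 55 bases before the Wdr54 start. The matches are at the same time in the first bases downstream of the 1700003E16Rik start. Along the chromosome this pair closed a run of 4 consecutive genes below 0 on both arrays, which began with NAP043130-1 and also held Rtkn. Such runs were not particular to this place, as 35.8% of the members lay below 0 on both arrays. Others were the 3 genes from Pcgf1 to Ccdc142 and, the longest, the 6 measured vomeronasal receptors. Ccdc142 and 4 of these receptors passed the filter on array 2 through the heterozygote alone. This favours values below 0, so these runs are no support for a difference. The 35.8% includes 8 such members.

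RefSeq promoter sequences were found for 92 of the 123 members, with 120 starts. GGNAAC was in 48 of the 120 (40.0%) and in 39.4% of all 32851 promoters of the same length. TAATTA was in 6 (5.0%) against 4.84%, and TAAACA in 8 (6.67%) against 12.03%. A match is a description of the letters and not of a bound site.

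The highest members did not reach the 1.5-fold rule. Vax2, a homeobox gene of the ventral eye and forebrain, had levels of 9.26 and 9.35 in heterozygotes and 9.70 and 9.63 in homozygotes. The homozygote values were both above the heterozygote values, and the ratio was 0.43 and 0.28 (0.36 ± 0.11). Tgfa, a ligand of the epidermal growth factor receptor, had levels of 8.40 and 8.99 in heterozygotes and 8.87 and 9.03 in homozygotes. These overlapped, with a ratio of 0.47 on array 1 and 0.04 on array 2. Plxna1, a semaphorin receptor, was at 0.22 ± 0.06 by its brightest probe. Txnrd3, a thioredoxin reductase, was at 0.18 ± 0.07, and the transcripts ENSMUST00000024283 and C030015A19Rik at 0.32 ± 0.18 and 0.25 ± 0.05.

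**Figure D3:**
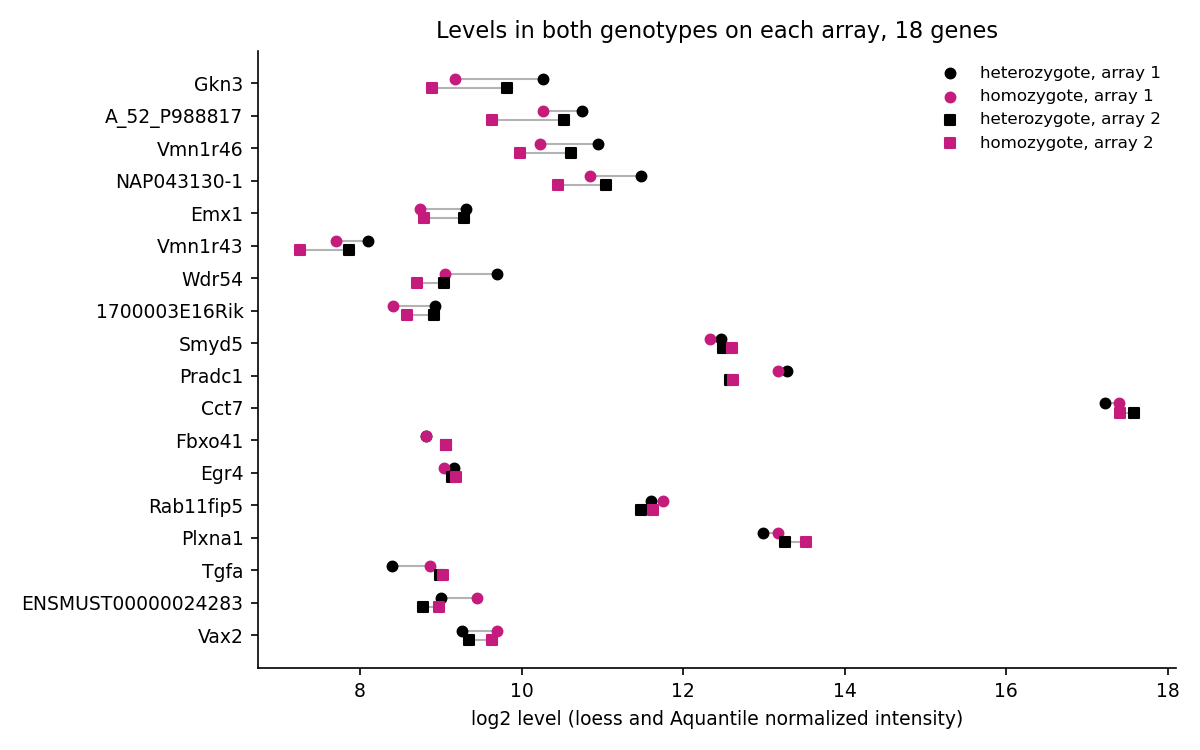
Log2 levels (x axis, normalized intensity) of 18 genes, in heterozygotes (black) and homozygotes (magenta) on array 1 (circles) and array 2 (squares), each array's pair joined by a line. For Gkn3, Vmn1r46 and NAP043130-1 both homozygote points lie left of both heterozygote points, whereas those of Smyd5, Pradc1 and Cct7 overlap.

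Grouped by role, both called genes with a symbol belonged to a list of genes known from other tissues, and the other role lists had 0 calls. That list, drawn up for stomach, pancreas, retina, oocyte, skin and vomeronasal genes, had 9 of 23 members measured, with a median of -0.24, 8 below 0 on both arrays, and 2 called lower. The shares over all measured genes were 34.0% and 2.35%, and over dimmer genes, to which 7 of the 9 belong, 43.0% and 4.06%. They include 6 vomeronasal receptors, 4 of which passed through the heterozygote on array 2. Nat8f1 and M1ap, the brightest of the list, were at -0.11 ± 0.21 and -0.08 ± 0.04. M1ap is a gene of meiosis.

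Transcription and chromatin regulators had 14 of 15 members measured, with a median of -0.05 and 0 called. On both arrays 5 (35.7%) lay below 0 and 2 (14.3%) above, against 34.0% and 25.7% of all measured genes. The brightest of the list were Ruvbl1, an ATPase of chromatin remodelling complexes, at 0.05 ± 0.62, and Cnbp, a nucleic acid binding protein, at 0.07 ± 0.09. Zfp638, a zinc finger gene, was at -0.01 ± 0.09 and Tet3, an enzyme that oxidises methylated cytosine, at -0.13 ± 0.23. Ruvbl1 showed how far the arrays can part for a bright gene. Its levels were 17.13 and 17.47 in heterozygotes and 17.61 and 17.08 in homozygotes, with ratios of 0.48 and -0.39.

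A short list of cilium, centrosome and microtubule genes, structures the node depends on, had 4 of 4 members measured. The list is not complete for the interval. Cfap100, a gene of cilia and flagella at 4.96 Mb that is not on it, was at 0.06 ± 0.12 and was named after its value was seen. Besides Wdr54 and Alms1 these were Dctn1, the large subunit of the dynein activator dynactin, at 0.02 ± 0.06, and Mob1a, at 0.00 ± 0.07. The median was 0.01 and 0 were called. Genes of folding, secretion and vesicle traffic had 17 of 19 measured and a median of 0.02. On both arrays 1 (5.88%) lay below 0 and 5 (29.4%) above, against 34.0% and 25.7% of all measured genes. Mogs, the first glucosidase of N-glycan trimming, was at 0.10 ± 0.13.

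Genes of metabolism, mitochondria and transport had 16 of 17 measured, with a median of -0.09. On both arrays 7 (43.8%) lay below 0 and 1 (6.25%) above, against 34.0% and 25.7% of all measured genes. Among all brighter genes, to which all but 4 of the 16 belong, the shares were 25.1% and 24.5%. With median centring the median of the list was 0.07. Of its genes 1 (6.25%) then lay below and 2 (12.5%) above 0 on both arrays, against 19.8% and 18.3% of all measured genes. The median of all genes also moved, from -0.02 to 0.12. Bola3, a factor of iron-sulfur cluster assembly, had heterozygote levels of 15.99 and 15.89 and homozygote levels of 15.76 and 15.53. The homozygote values were the lower ones, at -0.30 ± 0.10. Hk2, the hexokinase that starts glycolysis, was at -0.05 ± 0.53, and Chchd6 and Mrpl53, genes of mitochondrial cristae and of the mitochondrial ribosome, at -0.17 ± 0.23 and -0.07 ± 0.14.

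Genes of replication, repair and RNA processing had 11 of 11 measured, a median of -0.02 and 0 called. Snrpg, a core protein of spliceosomal particles, was at -0.09 ± 0.24, Pcbp1, an RNA-binding protein, at -0.02 ± 0.27, and Isy1, a splicing factor, at -0.01 ± 0.09. Signalling, adhesion and cytoskeletal genes had 19 of 22 measured and a median of 0.01. On both arrays 6 (31.6%) lay below 0 and 7 (36.8%) above, against 34.0% and 25.7% of all measured genes. Antxr1, an anthrax toxin receptor of the cell surface, was at 0.10 ± 0.06, Gmcl1 at 0.07 ± 0.09 and Fam136a at 0.02 ± 0.22. The 33 members on no list had a median of -0.04 with 1 lower call, NAP043130-1.

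**Figure D4:**
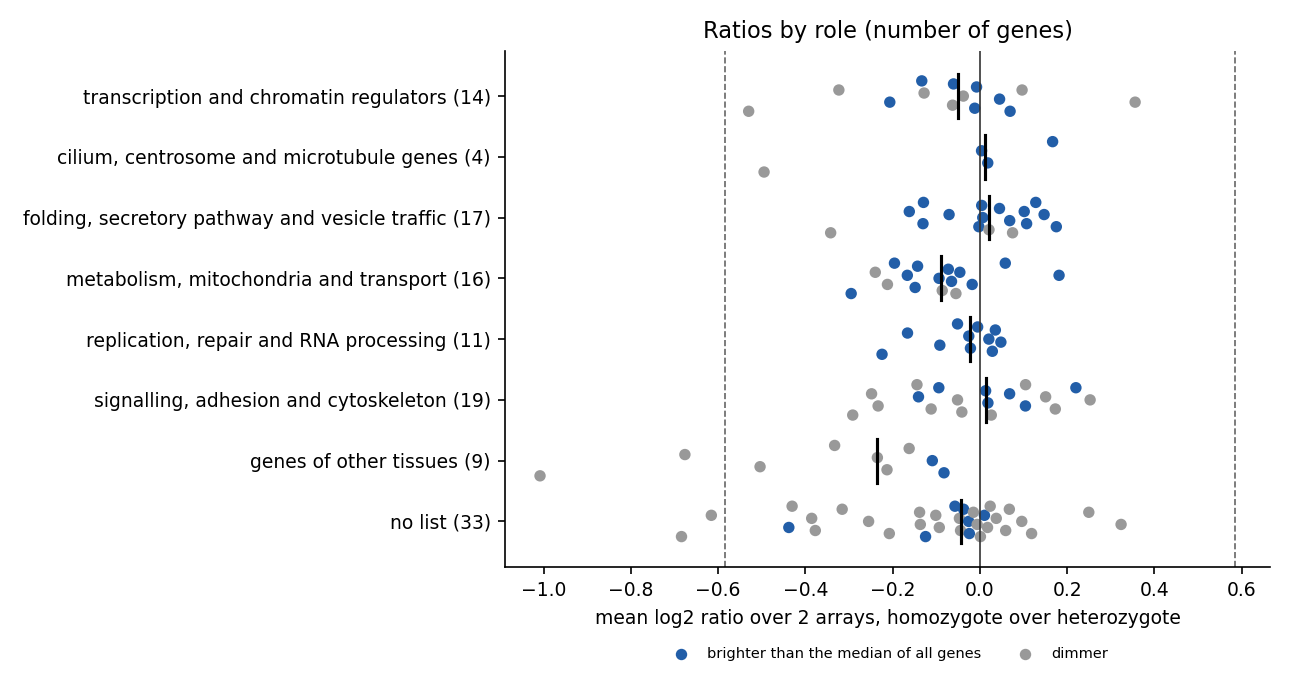
Mean log2 ratio over the 2 arrays (x axis) of each measured gene by role (rows, with the number of genes), coloured by whether the gene is brighter (blue) or dimmer (grey) than the median gene; black ticks are medians and dashed lines mark 1.5-fold. The 9 genes known from other tissues reach from -1.01 to -0.08, and the other groups are spread around 0.

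Several members are subunits of complexes whose other genes lie on other chromosomes or farther away, and these subunits were not set apart from their partners. The 8 chaperonin subunits ran from -0.14 to 0.32 with a median of 0.04, with Cct7 at -0.00. The 6 subunits of the MCM helicase ran from -0.30 to 0.18, with Mcm2, at 3.43 Mb, at -0.17 ± 0.05. Mcm2 levels were 15.57 and 16.12 in heterozygotes and 15.37 and 15.99 in homozygotes. They overlapped across arrays, although each array gave a slightly lower homozygote signal. The 12 dynactin genes ran from -0.28 to 0.36, with Dctn1 at 0.02. The 10 genes of the Sec61 translocon and oligosaccharyltransferase ran from -0.32 to 0.28, with Sec61a1 at -0.13 ± 0.20 and Rpn1 at 0.18 ± 0.16. Cyp26b1, an enzyme that clears retinoic acid, was at -0.05 ± 0.17 and its relative Cyp26a1 at -0.16 ± 0.13. None of these genes was called.

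Single probes told more than gene values in a few places. Of 178 measured probes in the interval 5 were lower by the rule and 0 higher, against 2.02% and 0.0865% of all 27734 measured probes. Besides the probes of the 3 called genes these were 1 probe of Tia1 and 1 of Rab11fip5, both dimmer than another probe of the same gene. Of the 40 members with at least 2 measured probes, 3 (7.50%) had probes that differed by more than 1.5-fold, against 5.54% of 6475 genes in all. These were Tia1, Rab11fip5 and Plxna1, singled out for this spread. The median spread between the probes of a gene was 0.17 both in the interval and over all genes.

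Tia1, an RNA-binding protein of stress granules, had the largest spread, 1.69. Its low probe, at chr6:86386997-86387056 of mm8, had levels of 8.80 and 9.05 in heterozygotes and 7.24 and 7.13 in homozygotes. The heterozygote lay above the homozygote on both arrays. The ratio was -1.56 on array 1; on array 2 the homozygote signal was not well above background, so the ratio of -1.92 there is against a value that was not measured reliably. The brightest Tia1 probe, at chr6:86396039-86396098, was at -0.22 ± 0.17, and the other pair at -0.34 ± 0.03 and -0.05 ± 0.20. The gene level of Tia1 was therefore not called, and which transcripts the low probe reads was not examined. Rab11fip5 had a low probe, at chr6:85302819-85302878, with levels of 9.38 and 9.38 in heterozygotes and 8.49 and 8.38 in homozygotes. Its ratio was -0.95 ± 0.08, while the brightest probe, at chr6:85300625-85300684, read 0.15 ± 0.01. Both are 0.12 Mb from the centre. For Plxna1 the dimmer probe was at -0.37 ± 0.16 against 0.22 for the brighter one.

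The first 30 of the 60 bases of these probes are shown, as deposited, because the result for both genes rests on which oligonucleotide is read. The low probe comes first for each gene, and no letter is marked. The low probe of Rab11fip5 was 55% G and C over its full length and the bright one 35%, and those of Tia1 40% and 35%.
Rab11fip5 low probe: gctgtgctggaccagtcggccaagtactat
Rab11fip5 bright probe: taaagagcttgttcttcatgttttgagcac
Tia1 low probe: aggatttcactagtggttggtttctttcaa
Tia1 bright probe: acagggagggtaggaaaactgttgtttacg
The probes of a gene lie at different positions, given above, and a base that differs between strains under a probe was not tested.

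**Figure D5:**
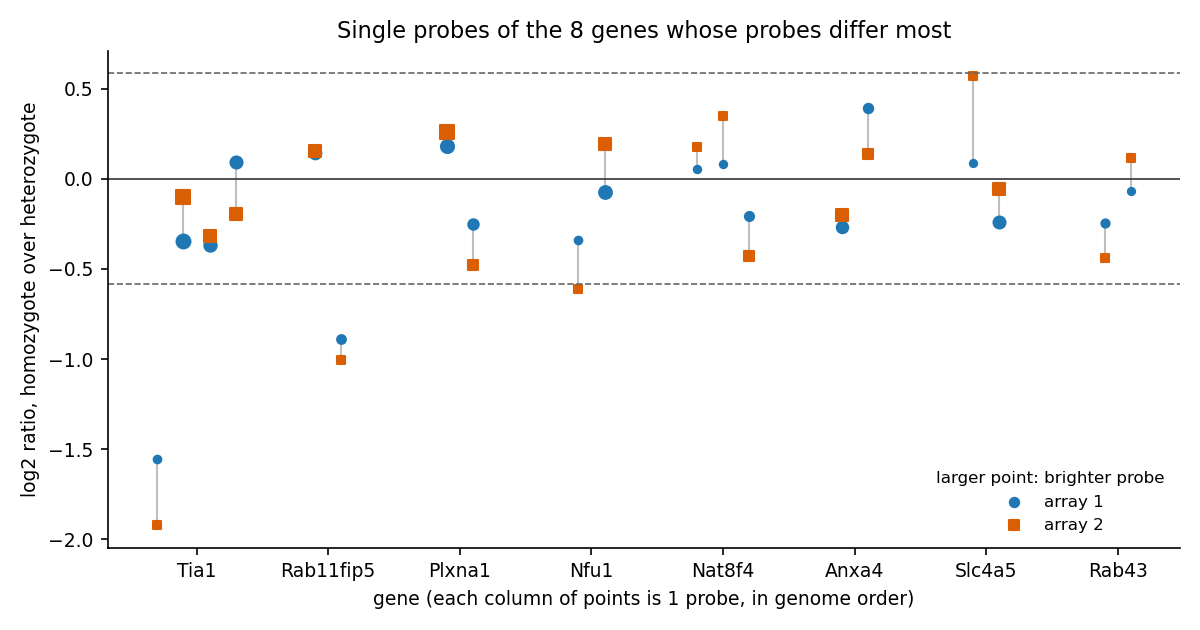
Log2 ratios on array 1 (circles) and array 2 (squares) of each measured probe (x axis, grouped by gene) for the 8 members whose probes differ most; larger points are brighter probes and dashed lines mark 1.5-fold. The low points of Tia1, at -1.56 and -1.92 (homozygote not well above background on array 2), and of Rab11fip5, with a mean of -0.95, belong to dim probes beside brighter ones.

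Signal strength moved with the calls. All 3 called members were among the 60 dimmer than the median of all measured genes, where they made up 5.0%, and among all dimmer genes 4.06% were called lower. Of the 63 brighter members 0 were called, against 0.635% of all brighter genes, and 58 of the 63 (92.1%) lay within 0.2 of 0. The dimmer members had a median of -0.10, and 29 lay below and 8 above 0 on both arrays, against 43.0% and 26.8% of all dimmer genes. They include the 12 members that passed on array 2 through the heterozygote alone. Without these, 21 of 48 (43.8%) lay below and 7 (14.6%) above 0. Among all dimmer genes well above background in both genotypes on both arrays the shares were 38.8% and 29.7%. The brighter members had a median of -0.02, with 15 (23.8%) below and 12 (19.0%) above, against 25.1% and 24.5% of all brighter genes. As a description over genes, which share the arrays and are not replicates, the ratios of both arrays correlated with r = 0.62 over the dimmer members and r = -0.16 over the brighter ones, with 0.42 over all 123 and 0.50 over all measured genes. The part of signal strength in the calls was not tested. A gene followed the dye where the arrays gave 1.5-fold or more with opposite signs, as 14 of all 18579 measured genes did. No member was among them. With so few in all this tells nothing particular about the members, of which 59 changed sign by some amount.

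Detection limits remain for the 51 genes that have a probe in the interval but were not measured. Among them are Bmp10, a ligand of the developing heart, Figla, an oocyte factor, Gkn1, Gkn2 and 8 vomeronasal receptors. Of the 123 measured genes 111 were well above background in both genotypes on both arrays, and the same 3 genes were called among them. The other 12 lacked the mark in the homozygote on array 2 only, so their ratio on that array, and any mean that includes it, rests on a signal not told apart from background. No member lacked the mark in 1 genotype on both arrays. The members reach from Gcfc2 at -3.50 Mb to Cfap100 at 4.96 Mb, and the nearest measured genes outside are 6330415B21Rik at -8.11 Mb and Klf15 at 5.02 Mb.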

How the data were processed

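Per the file headers, the authors read the arrays with Agilent Feature Extraction (9.5.3.1, also in the submitters' processing notes), which gave foreground, background and processed intensities, a log10 ratio of red over green and flags. The authors also deposited a value table of signal intensities, 1 column per sample. Paired samples held identical files, so the 4 samples are 2 arrays.

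Here limma 3.58.1 (R 4.3.3) applied normexp (offset 50) and loess with controls at weight 0. Outlier spots were dropped (179 and 165 gene spots), array 2 was turned, spots of 1 probe were averaged, and a gene took its brightest measured probe in the interval. Levels are from Aquantile. Names were updated through a RefSeq table (GRCm38.p6, 33115 probes matched, 8059 kept the file's name). Python 3.11.15, pandas 2.3.3, numpy 2.4.6 and matplotlib 3.10.9 gave summaries. The ratio code was tested on simulated data.

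Named were called genes, the 5 nearest on each side, the 6 highest and 6 lowest, the 4 brightest of each role, and measured members of the complexes. Members and lists were chosen with earlier results of these data known. The Ift122 list (IFT-A, 6 of 6 measured, -0.05 to 0.20, 0 called) had no member in the interval. No test was made, as each genotype had 1 RNA pool. Exon and UTR positions of probes were not analysed here.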

Additional observations from a re-analysis of the deposited data

How the results depend on the processing

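The count of 0 higher genes held under every alternative run. The 3 lower calls became 5 with the deposited value table (3.50% of all genes there, against 2.35%), 1 with median centring, 0 over brighter genes only, and 5 with each probe counted singly, an alternative chosen after seeing the data. Leaving out an array gave 4 to 7 lower genes and medians of -0.0601 to -0.0557. The median of -0.0469 became -0.0436 without background correction, -0.0318 with the scanner software's log ratios, -0.0332 with the value table, 0.0962 with median centring, -0.0373 with the mean of probes, -0.0379 with both genotypes well above background, -0.0549 within 2.5 Mb, -0.0373 within 10 Mb, -0.0216 over brighter genes, -0.0196 over single probes and -0.0413 without vomeronasal receptors, also added after seeing the data. The smaller sets follow from fewer genes; otherwise the cause was not tested. Under 5 alternatives 339 values of named genes stayed within the SD over the arrays, 76 moved, 43 of them with median centring, and 0 called values reversed. No paired analysis was possible because each value is already a ratio within an array and no test was made. Signals near background and 1 RNA pool per genotype limit what these arrays can show.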
